A study of Mus musculus with 5 samples.

Results

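Gata4-alone regions are the places in the adult mouse heart genome where the Gata4 list holds a region and neither the Nkx2-5 list nor the Tbx3 list holds one within 1 kb, measured as the gap between region ends. They were chosen by their measured positions in the 3 lists, with 3 further limits: chromosomes 1 to 19, a start at 3.1 Mb or later and a width below 400 bp. Of the 1756 regions of the Gata4 list, 1691 met these 3 limits and 828 of those were Gata4-alone. The 3 lists together hold 21703 regions.

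The study applied chromatin immunoprecipitation followed by sequencing (ChIP-seq) to whole hearts of adult FVB/N mice, with 1 library for each target. Gata4 and Nkx2-5 were profiled in wildtype hearts. Tbx3 was profiled in Myh6-MCM;CAG-CAT-TBX3 hearts, in which a TBX3 transgene under the general CAG promoter depends on a Cre (MCM) driven by the cardiomyocyte promoter of Myh6. The Tbx3 antibody control in Myh6-MCM hearts and the p300 library from wildtype hearts were not analysed here. Each list gives positions only, on mouse build mm9, so read depth and enrichment are unknown, no replicate check is possible, and no test between classes was made. A place missing from the Nkx2-5 or Tbx3 list is one where no region was listed, and this does not show that the factor was absent there. Genotype and factor cannot be told apart for Tbx3.

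Gata4 is a zinc-finger transcription factor that recognises GATA sequences in promoters and enhancers. It is needed for heart development and is known to act on many cardiac genes together with the homeodomain factor Nkx2-5, to which it can bind directly. Tbx3 belongs to the T-box family and represses genes of the working myocardium in the conduction system. Gata4 is made in cardiomyocytes and in other cells of the heart, among them endocardial cells and fibroblasts, and a list from whole heart does not say in which cells a region was occupied.

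Gata4-alone regions were the most frequent class of the Gata4 list. They made up 48.97% of the 1691 Gata4 regions in the limits (exact 95% interval 46.6 to 51.4%, which covers counting error only). A further 365 Gata4 regions (21.6%) lay within 1 kb of Nkx2-5 only, 213 (12.6%) within 1 kb of Tbx3 only and 285 (16.9%) within 1 kb of both. These shares follow from the rule and are given as a description. With the Tbx3 list set aside, so that both lists came from wildtype hearts, 1041 Gata4 regions had no Nkx2-5 region within 1 kb. The same rule applied to the other factors left 3282 of 6547 Nkx2-5 regions (50.1%) and 9623 of 13011 Tbx3 regions (73.96%) alone. The lists differ in length, so these shares cannot be ranked as properties of the factors.

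All but 25 of the 853 Gata4 regions without a near Nkx2-5 or Tbx3 region passed the 3 limits. Of the 25, 7 were on X or the mitochondrial genome, 14 started before 3.1 Mb on an autosome and 4 were 400 bp or wider. Distances are similar by choice in the 5 Gata4 regions named on each side of the 1 kb limit. Just inside it, a Tbx3 region was 1075 bp from the Gata4 region on chromosome 13 at 49456623 to 49456768, 1084 bp from that on chromosome 13 at 81829581 to 81829714, 1142 bp from that on chromosome 13 at 53074700 to 53074837, 1174 bp from that on chromosome 9 at 63552949 to 63553072 and 1192 bp from that on chromosome 17 at 88465446 to 88465690. Just outside it, the nearest region was Tbx3 at 998 bp (chromosome 5, 20445978 to 20446094), Tbx3 at 996 bp (chromosome 18, 11051338 to 11051466), Nkx2-5 at 962 bp (chromosome 11, 102859976 to 102860167), Tbx3 at 959 bp (chromosome 12, 73081209 to 73081456) and Tbx3 at 949 bp (chromosome 12, 16878396 to 16878626).

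Most Gata4-alone regions lay far beyond the limit. The nearest region of either other list was a median of 28.1 kb away (interquartile range 8.31 to 88.2 kb). Of the 828, 38 regions (4.59%) had one within 2 kb, 242 (29.2%) within 10 kb and 531 (64.1%) within 50 kb. Over all 1691 Gata4 regions in the limits the share with a Nkx2-5 or Tbx3 region within 10 kb was 65.3%, a difference that the rule itself makes. At the other end, 183 Gata4-alone regions (22.1%, exact 95% interval 19.3 to 25.1%) were more than 100 kb from any Nkx2-5 or Tbx3 region, 50 (6.04%) more than 500 kb and 17 (2.05%) more than 1 Mb.

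Tbx3 was the nearer of the other factors for 488 Gata4-alone regions (58.9%, exact 95% interval 55.5 to 62.3%) and Nkx2-5 for 340 (41.1%). Tbx3 supplies 66.5% of the Nkx2-5 and Tbx3 regions in the limits. The median distance was 42.7 kb to Tbx3 and 58.7 kb to Nkx2-5. Within 10 kb, 83 Gata4-alone regions had both factors, 103 had Tbx3 without Nkx2-5 and 56 had Nkx2-5 without Tbx3.

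**Figure D1:**
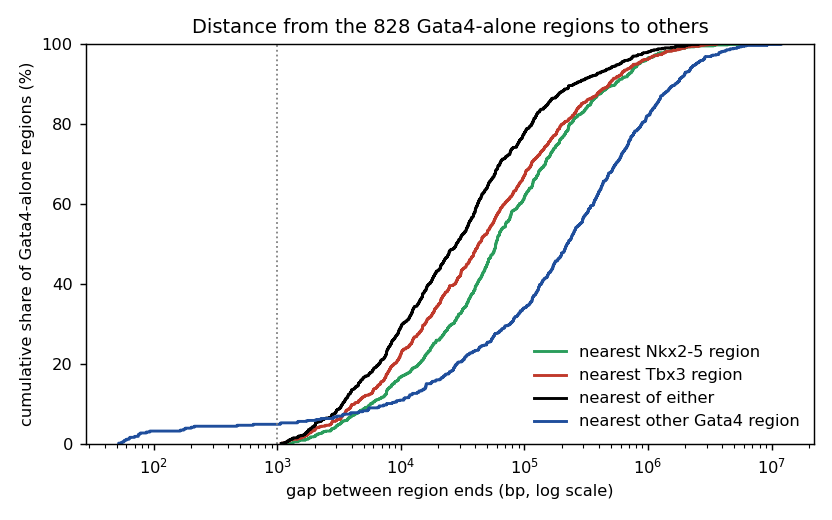
Cumulative share of the 828 Gata4-alone regions (vertical axis, %) against the gap to the nearest Nkx2-5, Tbx3, either, or other Gata4 region (horizontal axis, bp, log scale); the dotted line is the 1 kb limit of the rule. The curve for either other factor crosses 50% at 28.1 kb and that for other Gata4 regions at 222 kb.

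A set of 7 Gata4-alone regions had both a Nkx2-5 and a Tbx3 region within 2 kb. In 5 of the 7, the nearest Nkx2-5 and Tbx3 regions overlapped each other on the same side of the Gata4 region, and in the other 2 they lay on opposite sides. The closest was on chromosome 9 at 108207166 to 108207286, with Nkx2-5 at 1218 bp and Tbx3 at 1258 bp. On chromosome 8 at 107153822 to 107153945 the distances were 1351 bp to Nkx2-5 and 1278 bp to Tbx3, on opposite sides. Chromosome 15 held 3 of the 7, at 38471910 to 38472070, 77043319 to 77043442 and 98436531 to 98436836, the last with a width of 306 bp and the factors on opposite sides. The others were on chromosome 1 at 162834278 to 162834459 and on chromosome 3 at 89881488 to 89881594. In each of the 7 the distances to the 2 factors differed by at most 245 bp. Both distances had to lie between 1 and 2 kb, so the choice of the set itself keeps them close. The share of Nkx2-5 and Tbx3 regions that overlap over the whole lists is not given here. This set was picked after its values were seen.

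The 5 regions farthest from any Nkx2-5 or Tbx3 region stood alone in the Gata4 list too. The farthest, on chromosome 12 at 95572954 to 95573115, was 2565 kb from the nearest Nkx2-5 region, 2666 kb from the nearest Tbx3 region and 4923 kb from the nearest other Gata4 region in the limits. Next came chromosome 1 at 143000670 to 143001007 (2371 kb to Nkx2-5, 2192 kb to Tbx3, 2175 kb to Gata4) and chromosome 1 at 149190854 to 149191024 (2067, 3049 and 3267 kb in the same order). On chromosome 3, the region at 113332962 to 113333081 had distances of 1990, 2017 and 1990 kb, and the region at 23970228 to 23970346 had 1995, 1981 and 1996 kb. Of the 17 regions more than 1 Mb from both other factors, 13 also had no Gata4 neighbour within 1 Mb. On a slightly different measure, 19.9% of Gata4-alone regions had no Gata4 region between 10 kb and 1 Mb away. That share was 18.9% over all Gata4 regions in the limits. Of the 50 regions beyond 500 kb, 6 had a Gata4 neighbour within 10 kb, and these formed the 3 pairs on chromosomes 15, 12 and 3 described below.

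The median width of Gata4-alone regions was 140.5 bp (binomial 95% interval of the median 138 to 145 bp), with an interquartile range of 116 to 183 bp and a range from 100 to 388 bp. Over all 1691 Gata4 regions in the limits it was 149 bp. The median was 163 bp (152 to 173 bp) for Gata4 regions near Nkx2-5 only, 160 bp (153 to 174 bp) for those near both factors and 146 bp (140 to 158 bp) for those near Tbx3 only. The interval of the Gata4-alone median overlapped that of the class near Tbx3 only and lay below those of the classes near Nkx2-5 only and near both. A width of 250 bp or more was found in 51 Gata4-alone regions (6.16%), against 9.17% of all Gata4 regions in the limits, 12.1% of those near Nkx2-5 only, 8.92% of those near Tbx3 only and 14.4% of those near both. No region of the 3 lists was narrower than 100 bp, and 241 Gata4-alone regions (29.1%) were below 120 bp, close to this floor. A wider region reaches more of its surroundings. With nearness taken between region centres, the median was 141 bp for Gata4-alone regions and 158 bp for the other Gata4 regions. Under the main rule these medians were 140.5 and 158 bp. The centre rule gave 836 Gata4-alone regions in place of 828, so their number changed little. This comparison does not measure how reach bears on the class widths, which was not tested. The order was not particular to Gata4: under the same rule the median was 133 bp for Nkx2-5 regions alone against 152 bp for the other Nkx2-5 regions, and 143 bp for Tbx3 regions alone against 157.5 bp for the other Tbx3 regions.

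The share of Gata4-alone regions was lower in each wider bin of width. It was 56.6% of the 426 Gata4 regions of 100 to 119 bp (exact 95% interval 51.7 to 61.3%) and 52.8% of the 430 regions of 120 to 149 bp. It was 48.96% of the 433 regions of 150 to 199 bp and 39.3% of the 247 regions of 200 to 249 bp. Of the 155 regions of 250 to 399 bp, 32.9% were Gata4-alone (25.6 to 40.9%). The intervals treat regions as independent and are no test between bins.

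**Figure D2:**
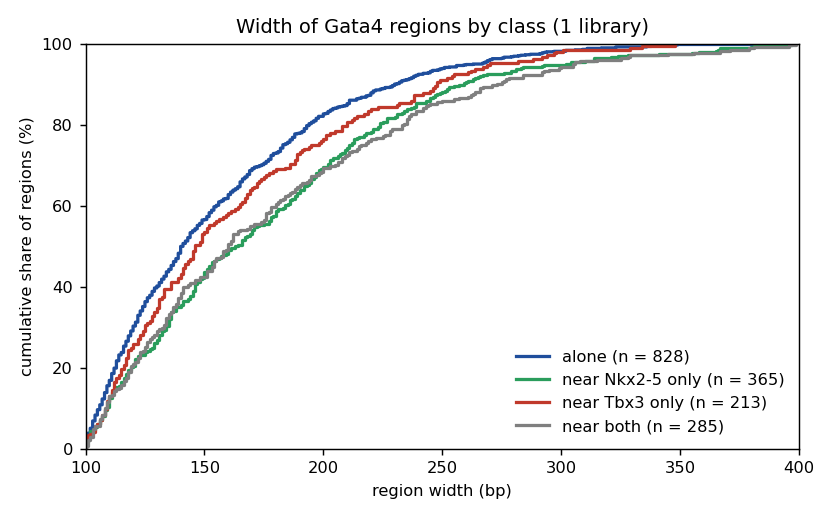
Cumulative share of regions (vertical axis, %) against region width (horizontal axis, bp) for the 4 classes of Gata4 regions in the limits, each line 1 class of the single Gata4 library. The Gata4-alone line lies to the left of the others for most of its course, with a median of 140.5 bp against 146 bp near Tbx3 only, 160 bp near both and 163 bp near Nkx2-5 only.

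Within the Gata4-alone class, the width ranges at different distances from the other factors overlapped. The median was 137.5 bp for the 242 regions at 1 to 10 kb, 140 bp for the 403 regions at 10 to 100 kb and 147 bp for the 183 regions beyond 100 kb, with interquartile ranges of 114.5 to 183.5, 116.5 to 183 and 117 to 183.5 bp. The share with a width of 250 bp or more was 4.96% (12 regions), 5.46% (22) and 9.29% (17) in the same order. The 50 regions beyond 500 kb, which are part of the last set, had a median of 138.5 bp. Of them, 4 (8.0%) were 250 bp or wider, so widths did not rise steadily with distance.

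The 10 widest Gata4-alone regions were found both near and far from the other factors, and 5 of them were more than 100 kb away. The widest was a region of 388 bp on chromosome 13 at 5591645 to 5592032, 209 kb from Nkx2-5 and 244 kb from Tbx3. A region of 349 bp on chromosome 16 (45009794 to 45010142) was 800.3 kb from Nkx2-5 and 393 kb from Tbx3. On chromosome 1, a region of 348 bp at 122653866 to 122654213 was 5.38 kb from Nkx2-5 but 492 kb from Tbx3. A region of 338 bp at 143000670 to 143001007 on the same chromosome is also the second farthest of the class. The region of 340 bp on chromosome 4 at 30737019 to 30737358 was 1551 kb from both. The others were 336 bp on chromosome 11 (17668411 to 17668746), 323 bp each on chromosome 19 (36757201 to 36757523) and chromosome 4 (56893279 to 56893601), 317 bp on chromosome 6 (12408953 to 12409269) and 311 bp on chromosome 4 (147362367 to 147362677). The last of these has an equal in width in the same group, described next, and is the only one of the 10 with another Gata4 region within 10 kb.

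Another Gata4 region lay within 10 kb of 91 Gata4-alone regions (11.0%, exact 95% interval 8.94 to 13.3%), against 14.3% of all Gata4 regions in the limits, so most regions of either set had none. The same order was seen in the other lists, where a neighbour of the same factor lay within 10 kb of 25.02% of Nkx2-5 regions alone against 37.1% of the others, and of 46.5% of Tbx3 regions alone against 55.8% of the others. The share was 15.9% (12.3 to 20.1%) near Nkx2-5 only, 11.7% (7.74 to 16.8%) near Tbx3 only and 23.5% (18.7 to 28.9%) near both. The intervals of the Gata4-alone class and of the class near both did not overlap, and those of the other classes overlapped with the Gata4-alone interval. These intervals treat regions of 1 library as independent, though neighbours count each other, so their overlap is no test between classes. Of the 91 regions, 67 had another Gata4-alone region within 10 kb and 24 had only Gata4 regions of the other classes there. With Gata4 regions of like kind (alone or near another factor) joined across gaps of up to 1 kb, 54 of 806 Gata4-alone sites (6.70%) had a Gata4 neighbour within 10 kb, against 100 of 834 other Gata4 sites (11.99%). By distance from the other factors, 22.3% of the Gata4-alone regions at 1 to 10 kb from another factor had one, 6.70% of those at 10 to 100 kb and 5.46% of those beyond 100 kb. The 50 regions beyond 500 kb, which are part of the last set, had one in 6 of 50 cases, so the shares did not decline steadily with distance. Without the group of 10 on chromosome 4 described below, the share at 1 to 10 kb was 19.7% (46 of 234). By the rule, Gata4 regions of the other classes lie within 1 kb of Nkx2-5 or Tbx3. A Gata4-alone region with such a neighbour is therefore close to another factor too. The rule itself makes part of these differences by distance, which are given as a description.

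Joined across gaps of 10 kb or less, the 828 regions formed 761 single regions, 27 pairs, 1 group of 3 and 1 group of 10. The gap inside a pair ran from 52 to 9254 bp with a median of 472 bp, and in 15 of the 27 pairs it was below 1 kb. The tightest pair was on chromosome 15, with regions at 50339674 to 50339949 and 50340002 to 50340105, 52 bp apart and 1202 kb from any Nkx2-5 or Tbx3 region. Pairs of the same kind lay on chromosome 12 at 75904894 to 75905069 and 75905245 to 75905494 (gap 175 bp, 755 kb from another factor) and on chromosome 3 at 8245790 to 8245920 and 8246393 to 8246569 (gap 472 bp, 742 kb). Pairs this tight may be counted as 1 stretch or as 2 sites, and the lists do not tell which. Close neighbours were not particular to this class. Another Gata4 region lay within 2 kb of 5.92% of Gata4-alone regions and 7.12% of those near Nkx2-5 only. The share was 6.57% near Tbx3 only and 13.3% near both. Pairs and groups were not counted in the other classes. The group of 3 was on chromosome 17 at 73322506 to 73322615, 73325637 to 73325788 and 73325953 to 73326155. Its nearest Tbx3 region was 21418 bp away and its nearest Nkx2-5 region 45646 bp.

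The group of 10 spanned 21.5 kb of chromosome 4 (147353113 to 147374645). At its middle, 9 Gata4 regions followed each other across 4327 bp (147362080 to 147366406), of which they covered 52.8%, with gaps from 64 to 642 bp. Of these 9, 7 were Gata4-alone: 147362080 to 147362289 (210 bp), 147362367 to 147362677 (311 bp), 147363115 to 147363257 (143 bp), 147363336 to 147363646 (311 bp), 147363711 to 147363914 (204 bp), 147364967 to 147365102 (136 bp) and 147365196 to 147365362 (167 bp). The remaining 2, at 147364204 to 147364604 and 147366005 to 147366406, met the distance rule but were left out by their widths of 401 and 402 bp. A single Gata4-alone region (147353113 to 147353262) lay at lower coordinates, and a pair (147374168 to 147374321 and 147374397 to 147374645) lay 7761 bp past the last of the 9. The surroundings were not empty of the other factors: Nkx2-5 had regions of 106 bp at 147359934 to 147360039, 2040 bp from the first of the 9, and of 350 bp at 147339833 to 147340182, and Tbx3 had one of 224 bp at 147343566 to 147343789. No gene is named for this or any other position, since the only gene positions at hand are those of GRCm38, and positions were not carried from one build to another.

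**Figure D3:**
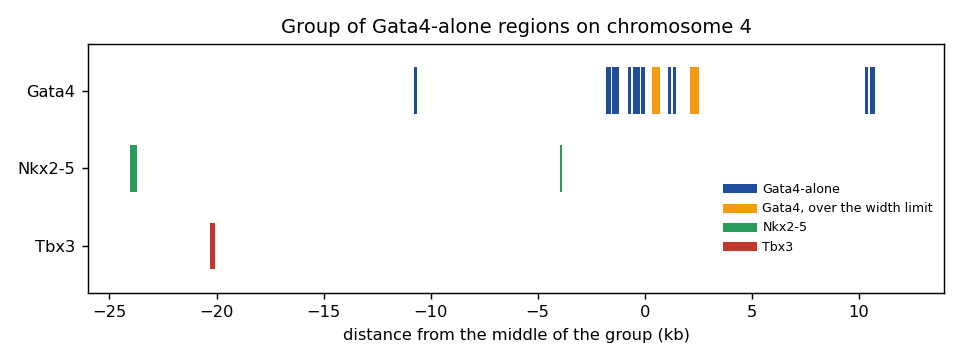
Regions of the 3 lists (rows) around the group of 10 Gata4-alone regions on chromosome 4, drawn to scale against distance from the middle of the group (horizontal axis, kb), with blue for Gata4-alone and orange for the 2 Gata4 regions over the width limit. The 9 Gata4 regions of the middle block lie within 4327 bp, 2040 bp or more from the Nkx2-5 region to their left and with no Tbx3 region beside them.

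The wider surroundings of Gata4-alone regions had the lowest median number of Tbx3 regions of the 4 classes, with quartile ranges that overlap. Between 10 kb and 1 Mb from a Gata4-alone region there was a median of 12 Tbx3 regions in the limits (interquartile range 6 to 23), against 15 (6 to 24) near Nkx2-5 only, 20 (11 to 33) near Tbx3 only and 18 (11 to 31) near both. Over all 1691 Gata4 regions in the limits it was 15. For Nkx2-5 the medians were 7 (4 to 12), 7 (4 to 12), 9 (6 to 16) and 9 (6 to 13) in the same order, and 8 over all. For Gata4 the median was 2 in all 4 classes. No Tbx3 region was present in this range around 35 Gata4-alone regions (4.23%), 6 regions near Nkx2-5 only (1.64%), 1 near Tbx3 only (0.469%) and 7 near both (2.46%), and 2.90% over all. For Nkx2-5 the shares without a region in this range were closer together, at 4.23% of Gata4-alone regions, 3.56% near Nkx2-5 only, 1.88% near Tbx3 only and 3.51% near both, and 3.67% over all. The classes are defined by the same Nkx2-5 and Tbx3 lists that are counted here. Their counts are therefore not independent of the rule and are given as a description. Regions that lie close together share surroundings and are not independent, and gene density was not measured.

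**Figure D4:**
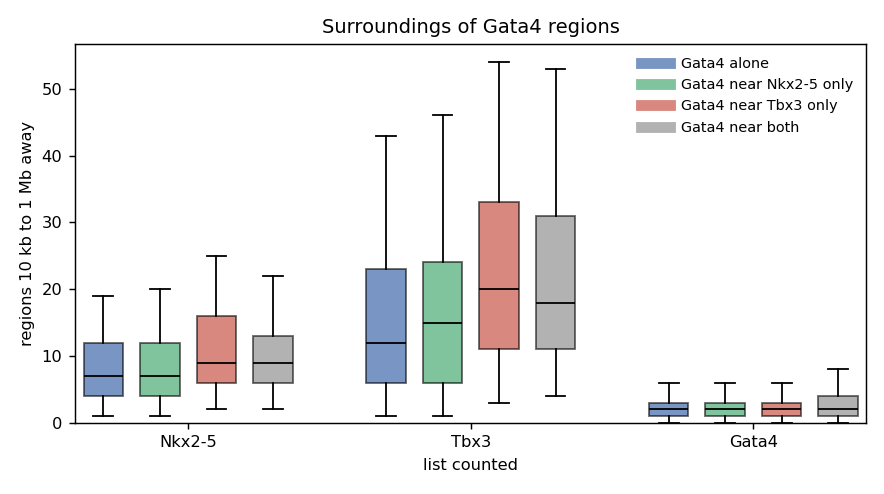
Number of regions of each list (horizontal axis) between 10 kb and 1 Mb from a Gata4 region (vertical axis, regions), by class; boxes are quartiles with the median line, and whiskers run from the 5th to the 95th percentile. The Gata4-alone median for Tbx3 is 12, against 15, 20 and 18 in the classes near Nkx2-5 only, near Tbx3 only and near both, while the Gata4 medians are all 2. The classes are defined by the same Nkx2-5 and Tbx3 lists, so their counts are not independent of the rule.

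Gata4-alone regions were found on all 19 autosomes. Chromosome 1 held the most, 68, and chromosome 14 the fewest, 20. Per 10 Mb of the span covered by the lists, chromosome 14 was lowest with 1.74 and chromosome 11 highest with 4.72, a 2.72-fold range with a median of 3.62. The other Gata4 regions were also sparsest on chromosome 14 (1.91 per 10 Mb) but densest on chromosome 19 (6.38 per 10 Mb), where Gata4-alone regions had 3.97. Chromosome 11 was also the densest for Nkx2-5 (42.3 per 10 Mb) and for Tbx3 (89.7 per 10 Mb).

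The share of Gata4 regions that were Gata4-alone ran from 38.2% on chromosome 15 (26 of 68) and 38.3% on chromosome 19 (23 of 60) to 62.7% on chromosome 6 (52 of 83). The exact 95% interval of chromosome 6, 51.3 to 73.0%, was the only one of the 19 that did not include the 48.97% of the whole list. The interval does not allow for the 19 chromosomes looked at, and it treats regions as independent.

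**Figure D5:**
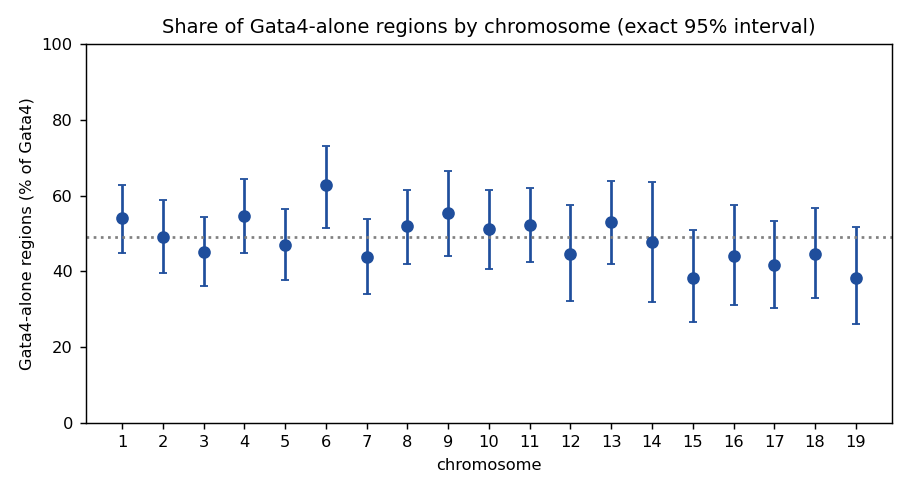
Share of Gata4 regions in the limits that are Gata4-alone (vertical axis, %) on each autosome (horizontal axis), with exact 95% intervals as bars and the share over all autosomes, 48.97%, as a dotted line. Points run from 38.2% on chromosome 15 to 62.7% on chromosome 6, and the bar of chromosome 6 alone clears the line.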

How the data were processed

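The files deposited by the authors are 3 lists of regions (Gata4, Nkx2-5, Tbx3), 1 library each, with chromosome, start and end and no score. Per the submitters' processing notes, positions refer to mm9. The aligner, peak caller, threshold, depth and any role of the control library were not given in the sources used here. Files were read as BED intervals and positions are printed counted from 1. Samples were grouped by their source labels. Distances are gaps between region ends, 0 where regions overlap, and the other lists entered the rule whole. Neighbours in the Gata4 list and counts of surroundings used regions within the same chromosome, start and width limits. Shares carry exact Clopper-Pearson 95% intervals, medians a binomial order-statistic interval; both treat regions as independent. Calculations used Python 3.11.15, numpy 2.4.6, pandas 2.3.3 and scipy 1.17.1, and the class rule was tested on simulated data. The rule and the listed measures were chosen with earlier results of these data known. Named regions are the 10 widest, the 5 farthest, the 5 on either side of the limit and groups of 4 or more; pairs, the group of 3 and the regions near both factors were chosen after their values were seen. Motif and gene-location comparisons, planned for an mm9 genome, were not run.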

Additional observations from a re-analysis of the deposited data

How the results depend on the processing

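With 1 library per factor no replicate could be left out, and no paired analysis was possible because the result comes from no test. The number of Gata4-alone regions stayed within 1.5 times of 828 in 14 of 15 alternatives, from 586 (limit of 10 kb) to 1193 (Tbx3 list alone); it was 1326 with the Nkx2-5 and Tbx3 lists cut to the length of the Gata4 list. Width below 200 bp lowered the median width to 131.5 bp, as that limit must. The share with a Gata4 neighbour within 10 kb was 8.41% with a 5 kb limit, 8.38% with widths below 200 bp and 6.70% with regions joined across 1 kb; for neighbours within 2 and 50 kb it was 5.92% and 25.4%. The share with a Nkx2-5 or Tbx3 region within 10 kb was 39.4% when overlap defined nearness, 15.1% with the 5 kb limit and 20.8% with the wider 50% of the other lists; within 2 and 50 kb it was 4.59% and 64.1%. The median distance to those lists was 18.2, 39.9 and 47.9 kb under the same 3 rules. In all 13 other settings of the rule, Gata4-alone regions had a lower median width than the other Gata4 regions and a lower share with a Gata4 neighbour. The width difference was 4.5 bp with widths below 200 bp and 8 bp with the Tbx3 list alone. It was largest, 24 bp, with the Nkx2-5 and Tbx3 lists cut to the Gata4 list's length. The settings reuse the same Gata4 list, so they are not separate support. Leaving out the chromosome 4 group, and joining regions across 1 kb, were chosen after the data were seen.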

Other observations

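Of 607 windows of 1 Mb with at least 1 Gata4-alone region, 444 held a single one (73.1%), 124 held 2 and 39 held 3 or more (6.43%), among them 11 with 4 or more. The 1691 Gata4 regions in the limits fell in 932 windows, of which 513 (55.0%) held a single one and 194 (20.8%) held 3 or more. The second list is longer and contains the first, so the window shares of the 2 lists cannot be compared. No expected number was computed. The following windows were picked after their counts were seen, which favours high shares of Gata4-alone regions, beside 48.97% over the list. Among the 11, the window of chromosome 11 that starts at 86000001 held 4 among 7 Gata4 regions. Windows at 53000001 on chromosome 11, at 58000001 on chromosome 15 and at 93000001 and 115000001 on chromosome 5 held 4 of 5. That at 108000001 on chromosome 6 held 4 of 4. The window with the most was that of the group on chromosome 4, with 10. The window of chromosome 11 that starts at 109000001 held 5 Gata4 regions in the limits, and all were Gata4-alone: 109208882 to 109209150, 109449038 to 109449167, 109503095 to 109503350, 109735293 to 109735414 and 109736481 to 109736589. Their widths ran from 109 to 269 bp and their nearest Nkx2-5 regions were 12.3 to 193 kb away. On chromosome 8, the window that starts at 59000001 held 5 among its 6 Gata4 regions, between 59613658 and 59947747. On chromosome 13, the window that starts at 5000001 held 4 of 4, among them the widest of the class, and the nearest Tbx3 regions were 244 to 522 kb away while Nkx2-5 regions came as close as 3.39 kb. On chromosome 9, the window that starts at 116000001 held 4 of 4, with nearest Nkx2-5 regions at 56.8 to 386 kb and nearest Tbx3 regions at 24.2 to 647 kb.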
